A study of Mus musculus with 6 samples.

Results

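The gene for the membrane glycoprotein CD200, its 4 receptor genes and 5 genes of sialic acid-binding lectins (Siglecs) were followed in bone marrow-derived mast cells (BMMCs) of 2 mouse strains. These 10 genes were chosen by name, as Cd200, Cd200r1, Cd200r2, Cd200r3, Cd200r4, Cd33, Siglece, Siglecf, Siglecg and Siglech, out of 35297 genes to which the quantified transcripts were matched. The cells were grown from the marrow of naive wild type mice, BALB/c in 3 libraries (S9, S10 and S11) and C57BL/6 in 3 libraries (S12, S13 and S14). Both groups shared 1 culture scheme with stem cell factor, TGF-β1, IL-9 and IL-3, and all 6 libraries were taken on day 20, with no further treatment named in the labels. The libraries of a strain are described as biological replicates of the culture, and the p-values measure the spread between them. The ages of the marrow donors, and whether each library came from its own mouse, are not expressly given in the sources used here. Poly(A) RNA was sequenced in pairs, and transcript levels were estimated by Salmon.

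CD200 is a surface protein of the immunoglobulin superfamily. Its receptor CD200R1 carries tyrosines in its cytoplasmic tail, which bind the adaptors Dok1 and Dok2 and restrain the activation of myeloid cells and mast cells. The related receptors encoded by Cd200r3 and Cd200r4 have short tails and pair with the adaptor DAP12, the product of Tyrobp, which recruits the kinase Syk. Siglecs bind sialic acid on the cell's own surface or on other cells, and many of them carry inhibitory motifs that recruit the phosphatases SHP-1 (Ptpn6) and SHP-2 (Ptpn11). Several Siglecs can restrain IgE-driven activation of mast cells, and Siglec-F, Siglec-H and Siglec-E are known best from eosinophils, plasmacytoid dendritic cells and neutrophils respectively.

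The 6 libraries held 28273312 to 37100759 reads on genes. All 10 markers of mast cells passed the filter on low counts, with a summed level of 30760 to 33660 CPM (counts scaled to library size) in BALB/c and 33770 to 35910 CPM in C57BL/6. The higher sum in C57BL/6 came from the tryptase gene Tpsb2 (818.1 to 1146 CPM against 4834 to 5452 CPM), and without it, as checked after the data had been seen, the other 9 summed to 29943 to 32529 CPM and 28941 to 30454 CPM. Tpsb2 and the histidine decarboxylase gene Hdc rose past both thresholds, while by adjusted p alone the list held 5 genes that rose and 2 that fell, the chymase gene Cma1 and the transcription factor gene Mitf. Eosinophil and neutrophil markers did not pass in any case, with 5 of 8 genes of each list at 0 reads in every library and no gene above 13 and 4 reads. Of 8 macrophage markers, 2 passed, and Csf1r, C1qa, C1qb and C1qc were at 0, while the summed level was 0.705 to 1.63 CPM in BALB/c and 13.3 to 13.9 CPM in C57BL/6. The 7 basophil markers summed to 97.9 to 102.6 CPM in BALB/c and 219.6 to 226.3 CPM in C57BL/6, most of it from the protease gene Mcpt8. Of these 7, 4 rose past both thresholds and another, Ms4a3, which encodes a membrane protein, rose by 0.99 on the log2 scale (SE 0.20, adjusted p = 0.0024), while Il18r1, an interleukin receptor gene, fell by 0.54 (SE 0.12, adjusted p = 0.00415) and Itga2, an integrin gene, was at 0.15 (SE 0.22, adjusted p = 0.589). In bulk RNA, fewer cells of a type and less RNA per cell cannot be told apart. Across the 12461 genes tested, 1653 (13.3%) passed an adjusted p of 0.05 with a change above 2-fold, and 6588 (52.9%) passed the adjusted p alone. The split of the former, 963 higher and 690 lower in C57BL/6, depended on the scaling, and was 838 and 829 with plain library sizes and 745 and 746 on log2(TPM + 0.1). The 3 libraries of a strain lay fully apart from those of the other strain in 61.9% of the genes.

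The genes lie in 2 families on 2 chromosomes. On chromosome 16 (GRCm39), the receptor genes Cd200r1, Cd200r4, Cd200r2 and Cd200r3 follow each other on the plus strand within 215.6 kb, from 44586096 to 44801743, and Cd200 lies on the minus strand at chr16:45202470-45229594. On chromosome 7, Siglecf, Siglecg, Cd33 and Siglece lie within 308.8 kb, from 43000765 to 43309607, and Siglech is at chr7:55417926-55429195. Promoter windows from RefSeq (GRCm38.p6), each of 300 bases around a transcription start site, were found for 9 of the 10 genes, all but Cd200r1. The windows of Cd200r3 and Cd200r4 are printed because they belong to the most abundant pair of members and are the most alike, with 140 of 156 aligned columns identical (89.7%). Those of Cd33 and Siglecf are printed because they were the next most alike, with 94 of 134 columns identical (70.1%). These genes differed in how many reads were found. Only the first listed window of each gene was aligned, so a further window of Siglecg was left out. All other pairs of aligned windows reached a score of at most 17, against 124 for Cd200r3 and Cd200r4 and 47 for Cd33 and Siglecf. Capitals mark matches to short words that were searched on both strands and chosen after the windows had been read. The word AGATAA is marked in the printed receptor windows and occurs in 11.2% of the 32851 RefSeq windows. It is also found in the window of Cd200, which had 0 reads, but not in that of the receptor gene Cd200r2. In the printed Siglec windows the word TGTGGT is marked, which 16.8% of all windows hold, as well as the word GGAAGTG, which 3615 of them hold. The window of Siglech, which had 0 reads, holds both of these words, and that of Cd200r2 holds TGTGGT, so a match is a description only. The 4 windows, at chr16:44943428-44943727 (plus strand), chr16:44820478-44820777 (plus strand), chr7:43533122-43533421 (minus strand) and chr7:43351091-43351390 (plus strand), read 5′ to 3′ as follows.
Cd200r3: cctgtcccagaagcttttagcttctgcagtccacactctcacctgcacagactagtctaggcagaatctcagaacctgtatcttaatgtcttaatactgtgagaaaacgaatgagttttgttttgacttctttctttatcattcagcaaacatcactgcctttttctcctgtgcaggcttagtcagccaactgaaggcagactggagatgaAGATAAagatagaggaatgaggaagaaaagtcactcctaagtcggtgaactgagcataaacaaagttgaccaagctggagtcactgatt
Cd200r4: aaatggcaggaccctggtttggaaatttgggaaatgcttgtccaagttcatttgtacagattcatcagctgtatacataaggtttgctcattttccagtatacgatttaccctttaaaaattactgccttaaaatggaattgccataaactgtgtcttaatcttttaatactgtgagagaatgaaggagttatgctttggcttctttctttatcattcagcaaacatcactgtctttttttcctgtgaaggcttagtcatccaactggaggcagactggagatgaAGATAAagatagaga
Cd33: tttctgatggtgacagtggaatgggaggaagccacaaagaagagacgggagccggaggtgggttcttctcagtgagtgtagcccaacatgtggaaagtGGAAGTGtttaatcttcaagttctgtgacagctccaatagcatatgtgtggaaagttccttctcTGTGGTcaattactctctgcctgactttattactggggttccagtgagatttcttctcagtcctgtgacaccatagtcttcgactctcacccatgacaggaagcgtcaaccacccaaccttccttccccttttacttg
Siglecf: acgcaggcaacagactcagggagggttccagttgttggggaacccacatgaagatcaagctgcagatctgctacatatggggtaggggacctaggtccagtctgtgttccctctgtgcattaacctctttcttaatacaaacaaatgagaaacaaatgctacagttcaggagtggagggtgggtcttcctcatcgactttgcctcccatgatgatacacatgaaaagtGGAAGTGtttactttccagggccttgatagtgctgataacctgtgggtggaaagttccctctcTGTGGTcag

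The stretch shared by the Cd200r3 and Cd200r4 windows holds AGATAA in both, at 39 bases before the annotated start of Cd200r3 and at base 36 after that of Cd200r4. The annotated start of Cd200r4 lies within the shared stretch, and that of Cd200r3 lies past its end. The word GGAAGTG comes before the word TGTGGT in the shared stretch of the Cd33 and Siglecf windows. Siglecf differs from Cd33 in its reads despite this likeness, as given with the Siglecs.

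Transcripts of the receptor genes Cd200r3, Cd200r4 and Cd200r1 were abundant in both strains and those of Cd200r2 were few, while the ligand was not read at all. Cd200 had 0 reads in all 6 libraries, where a count of 0 allows up to 3 reads, that is 0.0798 to 0.111 CPM by library. Cd200r3 was the most abundant member, at 345, 334 and 338 TPM in BALB/c and 290, 286 and 281 TPM in C57BL/6, and ranked 325 of the 12461 genes tested by mean TPM. Cd200r4 ranked 539. TPM is scaled for transcript length and library size and allows levels of different genes to be compared. In order of mean TPM the members ran Cd200r3, Cd200r4, Cd200r1, Cd33 and Cd200r2 in both strains, with the first 4 separated by more than the spread between libraries. Siglecf and Siglece followed at a few reads, and their ranges overlapped.

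**Figure D1:**
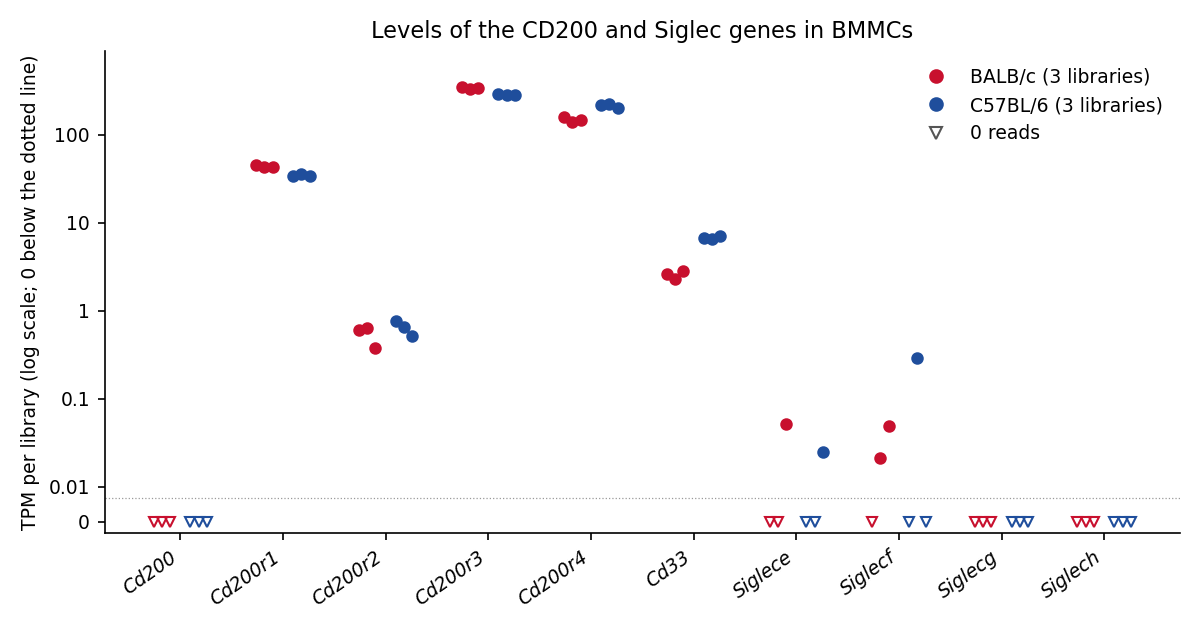
Level of each of the 10 genes in each library, in TPM on a log scale (red, BALB/c; blue, C57BL/6; 3 libraries each; open triangles below the dotted line, 0 reads). Cd200r3 and Cd200r4 stand at 140 to 345 TPM in all libraries, Cd33 is higher in every C57BL/6 library, and Cd200, Siglecg and Siglech are at 0 throughout.

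The strains were compared to ask how BMMCs from BALB/c and C57BL/6 differ at baseline. Of the 10 members, 5 passed the filter on low counts, namely the 4 receptor genes and Cd33, and 1 of these, Cd33, passed both thresholds, where 13.3% of all genes tested did (7.73% higher and 5.54% lower in C57BL/6). By adjusted p alone, 3 of the 5 passed, 2 of them higher in C57BL/6 (27.0% of all genes) and 1 lower (25.9%). On CPM, 4 of the 5 had values that were fully apart between the strains, against 61.9% of all genes. Log2 fold changes are C57BL/6 over BALB/c on CPM, and their median over all genes was -0.01.

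Cd200r4, which encodes a short-tailed receptor of the DAP12 type, had 5732, 4808 and 6506 reads in BALB/c and 8786, 7986 and 9218 reads in C57BL/6. Per length this was 159, 140 and 149 TPM against 219, 224 and 204 TPM, so every C57BL/6 library stood above every BALB/c library. The level was 171.5 ± 9.46 CPM (SD, n = 3) in BALB/c and 276.8 ± 17.5 CPM (SD, n = 3) in C57BL/6. Cd200r4 thus rose 1.61-fold in C57BL/6, with a log2 fold change of 0.69 (SE 0.06, 95% confidence interval 0.53 to 0.85, adjusted p = 1.09e-05 by edgeR's quasi-likelihood test). This stayed below 2-fold, and 20.4% of all genes tested changed by more in either direction. The adjusted p passed under all 15 alternatives, at 0.53 to 0.73 (adjusted p 7.96e-33 to 0.000501). The summed basophil markers were also higher in the C57BL/6 libraries, though not each marker, as given above, and their part in the result was not tested.

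Cd200r1 encodes the inhibitory receptor of the family. It had 1745, 1556 and 1998 reads in BALB/c and 1456, 1376 and 1649 reads in C57BL/6, or 45.9, 43.2 and 43.2 TPM against 33.9, 36.2 and 34.2 TPM. The strains did not overlap in TPM. On CPM, Cd200r1 fell in C57BL/6 by 0.16 on the log2 scale (SE 0.05, adjusted p = 0.021), from 53.4 ± 1.32 to 47.7 ± 2.81 CPM (SD, n = 3 each). With plain library sizes the value was -0.31 (adjusted p = 0.000417) and on log2(TPM + 1) it was -0.33 (adjusted p = 0.000384), where the median of all genes was at -0.15 in both. This is a small difference, and by the TMM-scaled value 61.8% of all genes tested changed by more. The adjusted p no longer passed when library S9 (-0.15, adjusted p = 0.0549), S12 (-0.13, adjusted p = 0.0798) or S14 (-0.15, adjusted p = 0.0704) was left out, while the direction held in all of these.

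Cd200r3, the second DAP12-type receptor, had 9870, 9115 and 11847 reads in BALB/c and 9421, 8219 and 10304 reads in C57BL/6. Its level was 310.3 ± 4.67 CPM (SD, n = 3) in BALB/c and 296.6 ± 6.53 CPM (SD, n = 3) in C57BL/6, and the log2 fold change of -0.07 (SE 0.04, 95% confidence interval -0.16 to 0.03, adjusted p = 0.154) did not pass. The 3 TPM values of C57BL/6 lay below those of BALB/c, and limma on log2(TPM + 1) gave -0.25 (adjusted p = 0.000252). The scale matters here, because on log2(TPM + 1) the median of all genes was itself at -0.15, and with plain library sizes, which gave Cd200r3 -0.21 (adjusted p = 0.000741), it was also at -0.15. Relative to the other genes, Cd200r3 therefore differed little between the strains.

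Cd200r2, a further receptor gene of the cluster, was barely read, at 21, 21 and 16 reads in BALB/c and 30, 23 and 23 reads in C57BL/6, or 0.38 to 0.64 TPM and 0.52 to 0.76 TPM. The ranges in TPM overlapped. The log2 fold change of 0.45 had an SE of 0.29 and a 95% confidence interval of -0.35 to 1.26 (adjusted p = 0.221), an interval that holds both no change and a rise above 2-fold, so that a difference was not resolved at this depth. Of the distinct words of 31 bases in Cd200r2 transcripts (GENCODE), 11.6% also occur in other genes, 6.78% in Cd200r4 and 3.59% in Cd200r1. The share in other genes was 9.25% for Cd200r4, 4.02% for Cd200r1 and 3.93% for Cd200r3, and only 0.17% of the words of Cd200r3 occur in Cd200r4. Reads from shared words can be split between these genes by the quantifier. The part of such splitting in the low level of Cd200r2 was not tested.

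**Figure D2:**
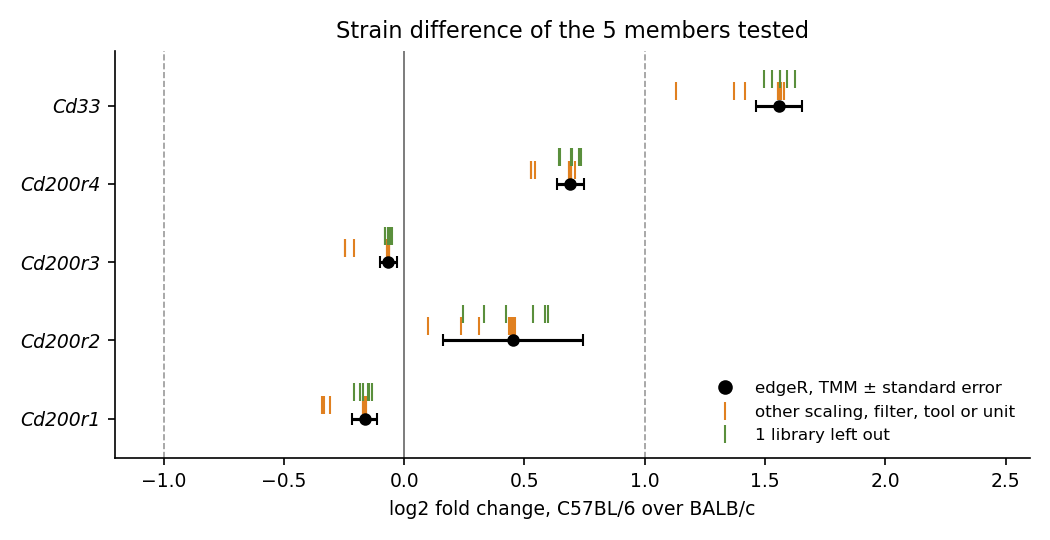
Log2 fold change, C57BL/6 over BALB/c, of the 5 members tested (black points, edgeR with TMM scaling, bars ± standard error), with the value under other scalings, filters, tools or units (orange) and with 1 library left out (green); dashed lines mark 2-fold. Cd33 lies beyond 2-fold in all of them, Cd200r4 between 0.53 and 0.73, and Cd200r1 and Cd200r3 just below 0.

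The mix of receptor transcripts shifted towards Cd200r4 in C57BL/6. Of the summed TPM of the 4 receptor genes, Cd200r4 held 28.9%, 27.1% and 28.1% in BALB/c against 40.3%, 41.0% and 39.2% in C57BL/6. Cd200r3 held 62.6%, 64.5% and 63.7% in BALB/c against 53.3%, 52.3% and 54.1% in C57BL/6. The share of Cd200r1 was 8.27% ± 0.12 (SD, n = 3) in BALB/c and 6.48% ± 0.20 (SD, n = 3) in C57BL/6, and Cd200r2 held 0.07% to 0.14% in any library. The strains did not overlap for Cd200r1, Cd200r3 and Cd200r4, for each of which a two-sided exact permutation test gave p = 0.1, the smallest p that 3 against 3 libraries allow. As shares of 1 sum, these are not independent of each other.

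The summed level of the 4 genes was 533.2 ± 16.1 TPM (SD, n = 3) in BALB/c and 536.8 ± 15.1 TPM (SD, n = 3) in C57BL/6, a difference within the spread between libraries (exact permutation test, two-sided p = 0.9). On CPM with TMM scaling, the sum was 535.8 ± 13.7 (SD, n = 3) in BALB/c and 621.9 ± 26.4 (SD, n = 3) in C57BL/6, and the summed reads rose by 0.21 on the log2 scale (SE 0.04, adjusted p = 0.00212). Between these scales the median of all genes itself moved, to -0.15 on log2(TPM + 1). Whether total receptor RNA was higher in C57BL/6 thus depended on the scale. The ratio of Cd200r4 to Cd200r3 within a library, which is free of the scaling between libraries, was 0.462, 0.420 and 0.441 in BALB/c against 0.755, 0.784 and 0.726 in C57BL/6. Its log2 difference between the strains was 0.78 on TPM and 0.76 on reads, and 0.74 to 0.81 with any 1 library left out. The ratio of Cd200r4 to Cd200r1 was 3.47, 3.25 and 3.45 in BALB/c against 6.45, 6.20 and 5.97 in C57BL/6, a log2 difference of 0.87. The ratio of Cd200r3 to Cd200r1 moved far less, by 0.10, from 7.50, 7.74 and 7.83 to 8.55, 7.91 and 8.22.

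**Figure D3:**
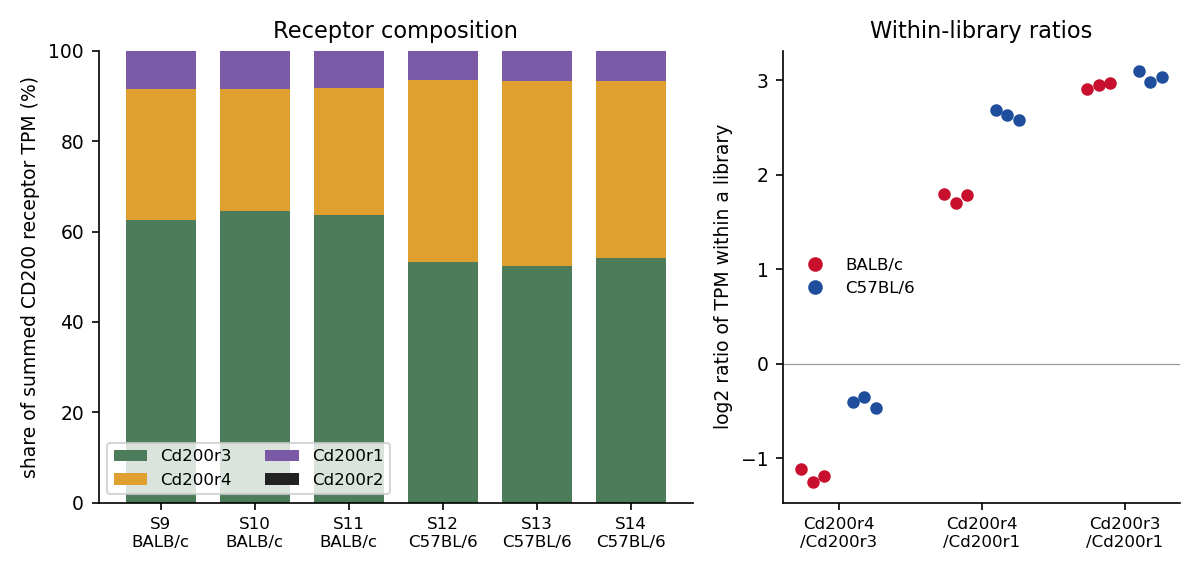
Left, share of each receptor gene in the summed TPM of Cd200r1, Cd200r2, Cd200r3 and Cd200r4 in each library (%; Cd200r2, at 0.07% to 0.14%, is too thin to see). Right, log2 ratio of TPM between receptor genes within each library (red, BALB/c; blue, C57BL/6); both ratios with Cd200r4 are higher in all 3 C57BL/6 libraries.

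Transcripts of the receptor genes, named by their RefSeq identifiers, were compared next. Of 28246 transcripts tested in the series, 1804 (6.39%) passed both thresholds and 14.7% passed the adjusted p alone. Cd200r4 was read mainly as NM_207244.2, at 77.5% ± 1.46 of the gene's TPM in BALB/c and 81.2% ± 0.83 in C57BL/6 (SD, n = 3 each; exact permutation test, two-sided p = 0.1). This transcript rose by 0.76 on the log2 scale (SE 0.05, adjusted p = 0.000982). The second, XM_006522128.4, held 19.0% in BALB/c and 16.0% in C57BL/6, with a log2 fold change of 0.44 (SE 0.13, adjusted p = 0.0837).

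Cd200r3 was spread over 13 listed transcripts, 2 of which held at least 10% of its TPM. NM_027578.1 held 49.7% ± 0.70 in BALB/c and 52.5% ± 1.61 in C57BL/6, and its log2 fold change was -0.00 (SE 0.04, adjusted p = 0.977). NM_029018.4 held 37.7% ± 0.27 in BALB/c and 32.7% ± 0.89 in C57BL/6, and it fell by 0.29 on the log2 scale (SE 0.03, adjusted p = 0.00318). The shares of both were fully apart between the strains (SD, n = 3; exact permutation test, two-sided p = 0.1 for each). The 2 main transcripts of Cd200r3 thus differed in size of change, although the difference between them was not tested by a model. Cd200r1 and Cd200r2 were listed with 1 transcript each.

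**Figure D4:**
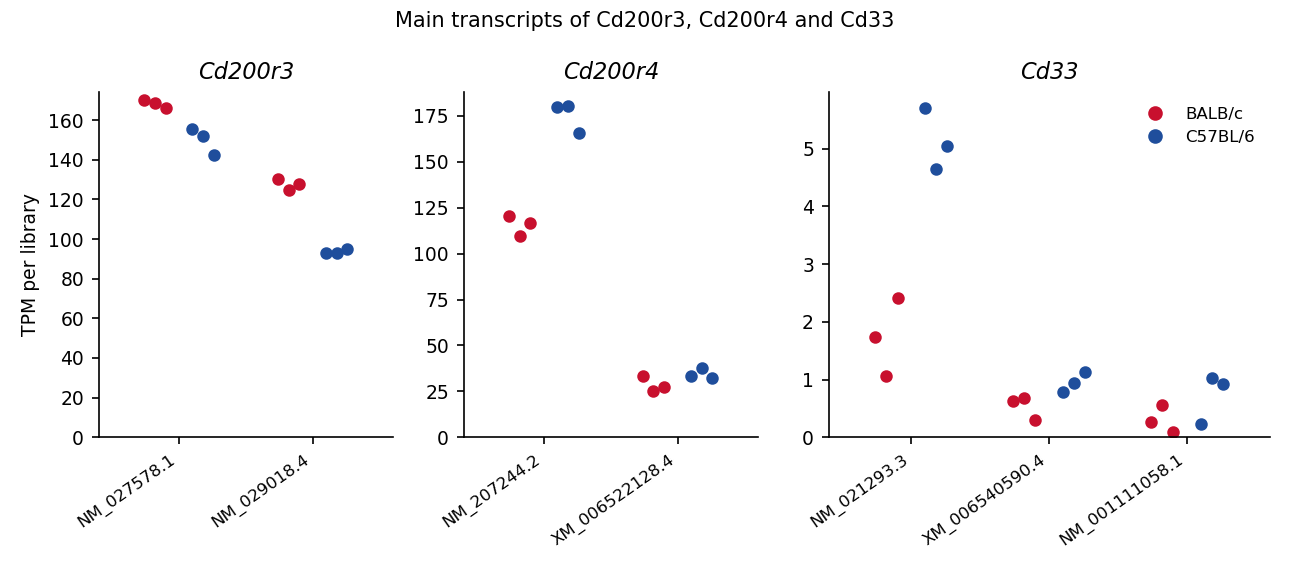
TPM in each library (red, BALB/c; blue, C57BL/6) of the transcripts that hold at least 10% of the TPM of Cd200r3, Cd200r4 or Cd33; each panel has its own axis, which starts at 0. On this scale NM_027578.1 and NM_029018.4 are lower, and NM_207244.2 and NM_021293.3 are higher, in all 3 C57BL/6 libraries.

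Among the 5 Siglec members, Cd33 was the one with reads beyond a few counts in every library. Cd33, a Siglec of myeloid cells, had 140, 118 and 178 reads in BALB/c and 396, 349 and 475 reads in C57BL/6. This was 2.62, 2.31 and 2.80 TPM against 6.72, 6.61 and 7.10 TPM, so every C57BL/6 library stood above every BALB/c library. Cd33 rose 2.95-fold in C57BL/6, from 4.36 ± 0.39 to 12.9 ± 0.51 CPM (SD, n = 3 each), with a log2 fold change of 1.56 (SE 0.10, 95% confidence interval 1.29 to 1.82, adjusted p = 1.56e-06). Of all genes tested, 8.39% changed by more in either direction, and 7.73% passed both thresholds upwards. Its change was 1.13 to 1.62 under the 15 alternatives (adjusted p 5.96e-26 to 0.000159), the smallest on log2(TPM + 1), which understates low genes. By mean TPM, Cd33 stood at percentile 33.1 of the genes tested, far below Cd200r3 at percentile 97.4.

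Both macrophage markers that were tested moved in the same direction. Adgre1, which encodes the surface receptor F4/80, had 16, 0 and 16 reads in BALB/c against 304, 268 and 365 in C57BL/6 and rose by 4.93 on the log2 scale (SE 0.39, adjusted p = 7.58e-06). Cd68, a lysosomal glycoprotein of macrophages, rose by 2.01 on the log2 scale (SE 0.20, adjusted p = 3.54e-05), from 36, 21 and 34 to 134, 91 and 126 reads. Lyz2, which encodes lysozyme, had at most 2 reads in any library, and the defining markers Csf1r, C1qa, C1qb and C1qc were at 0 as given above. Among the basophil markers, Mcpt8 rose by 1.12 on the same scale (SE 0.04, adjusted p = 8.22e-08), from 84.0 ± 3.74 to 182.6 ± 2.90 CPM (SD, n = 3 each). Larger rises came from a few reads in BALB/c. Prss34, a protease gene, went from 1, 8 and 2 to 213, 192 and 224 reads. Cebpa, a transcription factor gene, went from 5, 3 and 2 to 330, 253 and 334 reads, and the chemokine gene Ccl9 from 5, 5 and 13 to 338, 310 and 368 reads. Ms4a3 also rose by adjusted p, and Il18r1 and Itga2 did not rise, as given above. The part of these markers in the Cd33 result was not tested.

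Cd33 reads fell on 3 listed transcripts. NM_021293.3 held 66.0% ± 20.1 of the gene's TPM in BALB/c and 75.4% ± 8.20 in C57BL/6 (SD, n = 3 each; exact permutation test, two-sided p = 0.5). It was the 1 member transcript that passed both thresholds, with a log2 fold change of 1.72 (SE 0.35, adjusted p = 0.0278). This call was lost without library S9, S12, S13 or S14, where 0 member transcripts remained past both thresholds. Without S10 or S11 the count stayed at 1, but only the count was kept, not the name of the transcript. XM_006540590.4 had a log2 fold change of 0.99 (SE 0.44, adjusted p = 0.25) and NM_001111058.1 one of 1.42 (SE 0.91, adjusted p = 0.451). Their shares varied widely between libraries of 1 strain, and a shift in the mix of Cd33 transcripts was not resolved at this depth.

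The other 4 Siglec members were at or near 0. Siglecg, which encodes the B cell lectin Siglec-G, and Siglech had 0 reads in every library. Siglece had 0, 0 and 2 reads in BALB/c and 0, 0 and 1 in C57BL/6. Siglecf had 0, 1 and 3 reads in BALB/c and 0, 15 and 0 in C57BL/6, so that library S13 alone held more reads than the floor of 3. None of the 4 passed the filter, and no fold change is given. The 4 remaining mouse Siglec genes on a fixed list did not pass either, with Siglec1 and Cd22 at 0 reads and at most 13 reads in a library for any of them. Dendritic cell and plasmacytoid dendritic cell markers, with 3 of 8 tested, summed to 35.2 to 40.2 CPM in BALB/c and 49.4 to 55.7 CPM in C57BL/6, most of it from Bst2, while Siglech stayed at 0. The 3 tested genes did not move as one. Bst2, a surface protein gene, rose by 0.33 on the log2 scale (SE 0.06, adjusted p = 0.000928), Irf8, a transcription factor gene, had 12, 2 and 3 reads in BALB/c against 164, 137 and 232 in C57BL/6, and Pacsin1, an endocytic adaptor gene, fell by 1.94 (SE 0.34, adjusted p = 0.00119).

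The adaptors and effectors of these receptors were expressed in both strains, and 17 of 18 listed genes were tested. Fyn, an Src-family kinase, rose past both thresholds and Dok2 fell past both. This count was near the background, where 7.73% of all genes tested rose and 5.54% fell. By adjusted p alone, 5 rose and 6 fell, against 27.0% and 25.9% of all genes. The list's median log2 fold change was -0.03, near that of all genes. Tyrobp, which encodes DAP12, was at 194.2, 274.2 and 236.9 TPM in BALB/c and 144.4, 115.2 and 121.6 TPM in C57BL/6. All C57BL/6 libraries were lower, and on CPM Tyrobp fell by 0.70 on the log2 scale (SE 0.12, adjusted p = 0.00124).

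Dok2, an adaptor that binds the CD200R1 tail, had 276, 255 and 313 reads in BALB/c and 107, 125 and 118 reads in C57BL/6. It fell by 1.19 on the log2 scale (SE 0.13, adjusted p = 7.98e-05), from 8.52 ± 0.17 to 3.77 ± 0.74 CPM (SD, n = 3 each). Dok1, its partner on that tail, which is named here after its values were seen, fell by 0.71 (SE 0.06, adjusted p = 1.36e-05), from 67.5 ± 5.61 to 41.2 ± 1.25 CPM (SD, n = 3 each). Dok3, of the same family, was at -0.08 (SE 0.04, adjusted p = 0.148), and Rasa1, whose product RasGAP binds Dok proteins, rose by 0.35 (SE 0.04, adjusted p = 0.000131).

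Fyn had 526, 313 and 701 reads in BALB/c and 883, 990 and 1175 in C57BL/6. Its log2 fold change was 1.08 (SE 0.18, adjusted p = 0.000953), but it was 0.88 without library S10, 0.99 without S13, 0.94 with plain library sizes, 0.85 on log2(TPM + 1) and 0.94 on log2(TPM + 0.1), all below 2-fold. Csk, a kinase that restrains Src-family kinases, fell by 0.28 (SE 0.04, adjusted p = 0.000312). Inpp5d, which encodes the phosphatase SHIP-1 and had 172.5 to 216.4 TPM in any library, had a log2 fold change of -0.03 (SE 0.03, adjusted p = 0.448), but passed at -0.18 with plain library sizes (adjusted p = 0.00261) and at -0.24 on log2(TPM + 1) (adjusted p = 0.00134). Grb2, an adaptor of growth factor receptors, was at 0.01 (SE 0.04, adjusted p = 0.892), with its sign turned under plain library sizes, on TPM and in some fits with 1 library left out.

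Siglec ligands carry sialic acid, and 22 of 35 listed genes of its synthesis, transfer, removal and modification were tested. Of these, 2 rose and 1 fell past both thresholds, and 7 rose and 4 fell by adjusted p alone, with a median log2 fold change of 0.05. These counts are near the background, where 13.3% of all genes tested passed both thresholds and 52.9% passed the adjusted p alone. The 3 genes past both thresholds encode sialyltransferases, which attach sialic acid to glycans. St3gal1, which caps O-glycans, had 164, 165 and 168 reads in BALB/c and 352, 312 and 387 in C57BL/6, and rose by 1.15 on the log2 scale (SE 0.10, adjusted p = 1.51e-05). St8sia1, which makes the ganglioside GD3, had 852, 614 and 584 reads in BALB/c and 1387, 1453 and 1984 in C57BL/6, and rose by 1.29 (SE 0.17, adjusted p = 0.00022). The strains did not overlap in either gene, but on log2(TPM + 1) both stayed below 2-fold, at 0.62 and 0.95, as did St3gal1 on log2(TPM + 0.1), at 0.92.

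St3gal2, which also acts on O-glycans and gangliosides, went the other way, with 442, 580 and 426 reads in BALB/c and 125, 72 and 112 in C57BL/6. It fell by 2.18 on the log2 scale (SE 0.22, adjusted p = 3.27e-05), from 14.9 ± 4.16 to 3.25 ± 0.63 CPM (SD, n = 3 each). St8sia4, a polysialyltransferase, rose by 0.71 (SE 0.06, adjusted p = 1.45e-05). St3gal4, the sialyltransferase gene of highest TPM, had a log2 fold change of 0.11 (SE 0.04, adjusted p = 0.0349), which turned negative, to -0.04 to -0.08, with plain library sizes and on TPM. The adjusted p did not pass with DESeq2 (adjusted p = 0.1, or 0.145 with a length offset), without the filter (adjusted p = 0.0917) and without library S9, S11, S12, S13 or S14 (adjusted p 0.0654 to 0.103), so no change is read for St3gal4. St3gal3 was at -0.03 (SE 0.09) and St6galnac3 at 0.17 (SE 0.11), and neither passed the test. Without library S10, St6galnac3 was at 0.29 and passed (adjusted p = 0.0264).

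**Figure D5:**
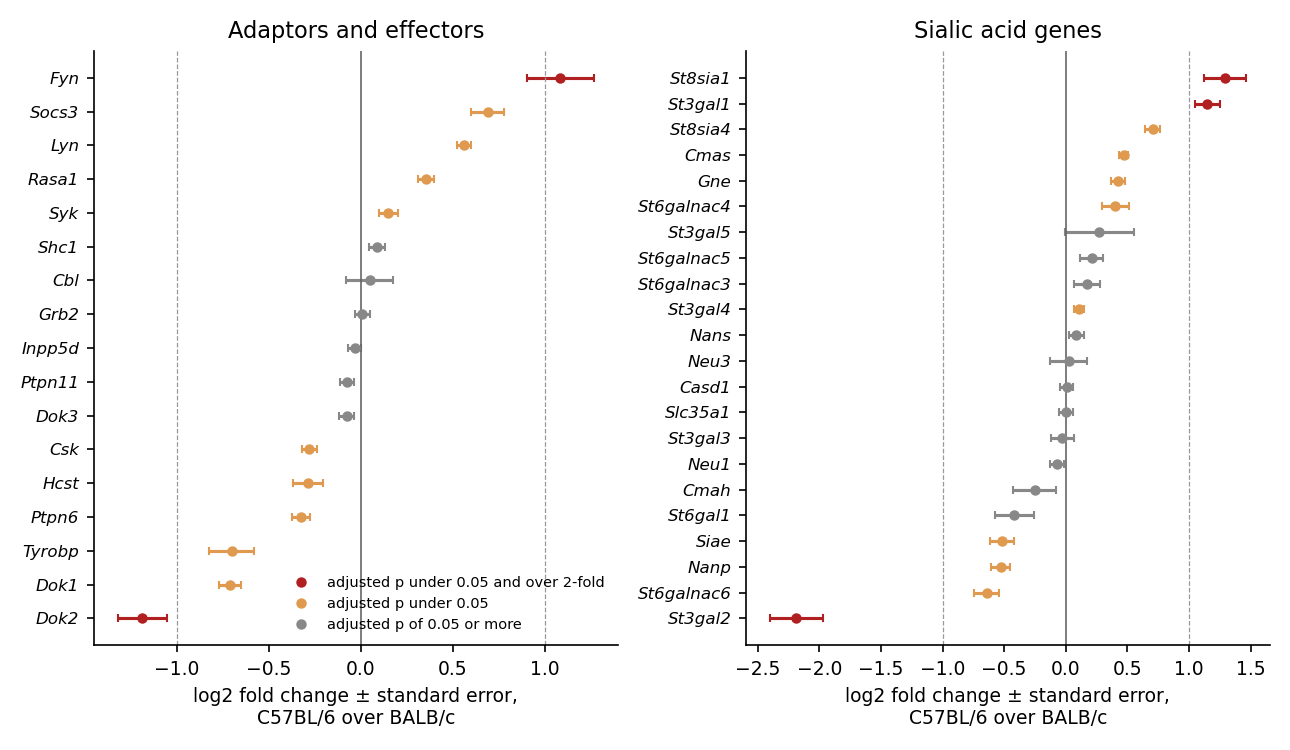
Log2 fold change ± standard error, C57BL/6 over BALB/c, of the 17 adaptor and effector genes tested (left) and of the 22 sialic acid genes tested (right; red, past both thresholds; orange, adjusted p under 0.05 alone; grey, neither; dashed lines, 2-fold). Dok2 and St3gal2 lie furthest to the left, and Fyn, St8sia1 and St3gal1 lie beyond 2-fold to the right.

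Of the genes that make and load the sugar, Cmas, whose product activates sialic acid to its CMP form, rose by 0.47 (SE 0.04, adjusted p = 6.28e-06), from 89.2 ± 1.5 to 123.6 ± 2.26 CPM (SD, n = 3 each). Nanp, which encodes the phosphatase of the pathway, fell by 0.53 (SE 0.07, adjusted p = 0.000308). Nans, the sialic acid synthase gene, was at 0.09 (SE 0.06), and Slc35a1, which encodes the transporter of CMP-sialic acid into the Golgi, at 0.00 (SE 0.06), and neither passed the test. Both of these turned negative with plain library sizes and on TPM. Among the genes of removal and modification, Siae, a sialic acid esterase gene, fell by 0.52 (SE 0.10, adjusted p = 0.00183), and Neu1, the lysosomal sialidase gene, was at -0.07 (SE 0.06, adjusted p = 0.336), but passed at -0.22 with plain library sizes (adjusted p = 0.0104) and at -0.23 on log2(TPM + 1) (adjusted p = 0.0108). Casd1, a sialic acid acetyltransferase gene, and Neu3, a sialidase gene of the plasma membrane, were at 0.01 (SE 0.05) and 0.02 (SE 0.15), with signs that changed between scalings.

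The protein-coding neighbours of the members, 3 on each side of each cluster or lone gene, gave 22 genes, of which 11 were tested. Their log2 fold changes ran from -0.42 to 0.33. By edgeR, 0 of the 11 passed both thresholds, 5 passed the adjusted p alone and 6 had an unadjusted p under 0.05, and DESeq2 also placed 0 past both. Of all genes tested, 13.3% passed both thresholds and 52.9% passed the adjusted p alone. The mouse reference genome was made from C57BL/6 mice. Where the quantified transcripts follow it, a lower match of BALB/c reads and a lower level in BALB/c cannot be told apart.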

How the data were processed

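The sources name a stranded mRNA kit, FastQC 0.11.5 and Salmon 0.8.2, run by the authors to give each library a deposited table with estimated counts (reads, not always whole) and TPM per transcript. No replicates were pooled. The stated reference is Ensembl GRCm39, but the transcripts in the tables carry RefSeq names, so the exact transcript set is not known here. Of these names, 106440 of 129698 (82.1%) matched a gene symbol with the version removed, and the unmatched ones held 2.69% to 3.12% of the reads. Estimated counts were summed per gene and rounded. The libraries were grouped by strain from their titles. Genes past edgeR's filterByExpr (min.count 10) were tested with edgeR 4.0.16 (TMM scaling, quasi-likelihood test, Benjamini-Hochberg adjustment over all genes tested, R 4.3.3), calling changes above 2-fold with an adjusted p under 0.05, and transcripts in the same way. Intervals are 95% and cover the spread between libraries, and the floor of 3 reads covers counting error only. Shares and sums of TPM were compared by an exact permutation test (scipy 1.17.1). The procedure was tested on simulated data. Alternatives were DESeq2 1.42.0 with and without a length offset, limma 3.58.1 on log2 TPM with a pseudocount of 1 or 0.1, other scalings and filters, unmatched transcripts kept, receptor or Siglec reads summed and each library left out; the within-library ratios and their alternatives were added after the data had been seen. The members, lists and tests were chosen with earlier results of these data known. All 10 members are named, as are member transcripts with at least 10% of a gene's TPM and, of each pathway list, genes past both thresholds and up to 4 of highest TPM. Marker genes past both thresholds or highest in TPM may be named. Dok1, Dok3, Rasa1, Ms4a3, Mitf, Il18r1, Itga2, Lyz2, Csf1r and the C1q genes are named outside this rule, after their values were seen. Positions are from GENCODE (GRCm39) and promoter windows from RefSeq (GRCm38.p6), aligned locally with Biopython 1.88; no coordinates were converted.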

Additional observations from a re-analysis of the deposited data

How the results depend on the processing

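The number of members past both thresholds was 1 in the fits with another scaling, filter, tool or unit and 1 to 1 with any 1 library left out, and it was 3 by adjusted p alone. Over all genes the count was 1017 with at least 10 reads in every library, 799 with limma on log2(TPM + 1), 6588 by adjusted p alone and 1663 to 1777 with 1 library left out, and over all transcripts it was 1226 to 1444 with 1 library left out. With the 4 receptor genes summed as 1 feature the log2 fold change was 0.21, which turned the sign for Cd200r1 and Cd200r3 because the sum holds Cd200r4. Under plain library sizes, limma on log2(TPM + 1) and limma on log2(TPM + 0.1), where the median of all genes moved to -0.15, -0.15 and -0.18, these genes near 0 turned negative. Grb2 was at -0.14, -0.17 and -0.17, Nans at -0.058, -0.091 and -0.092, Slc35a1 at -0.14, -0.17 and -0.18, St3gal4 at -0.037, -0.080 and -0.082, Casd1 at -0.14, -0.17 and -0.19 and Neu3 at -0.12, -0.092 and -0.15. On both TPM scales St6galnac3 was at -0.059 and -0.066. DESeq2 with a length offset gave 0.0087 for St3gal3 and -0.0072 for Casd1, keeping unmatched transcripts gave 0 for Grb2 and -0.0035 for Slc35a1, and dropping the filter gave -0.0031 for Slc35a1. With 1 library left out the value ran from -0.018 to 0.036 for Grb2, -0.046 to 0.031 for Slc35a1, -0.086 to 0.043 for St3gal3, -0.019 to 0.040 for Casd1 and -0.068 to 0.12 for Neu3. Beyond the shift of the median, the cause of these turns was not tested. On the same 3 scalings, the adjusted p passed for Cd200r3, Inpp5d and Neu1, and also for Grb2, Slc35a1 and Casd1 with the sign turned. Cd200r4 and Cd33 kept their direction and their side of the adjusted p under all 15 alternatives. No paired analysis was possible because the libraries of the strains share no replicate number. Depth limits Cd200r2, Siglece and Siglecf, at 0 to 30 reads.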
